A study of Saccharomyces cerevisiae with 45 samples.

Results

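The step of spore germination that lies between 30 and 60 min after transfer into rich medium was examined in the untreated arm of a yeast time course. It is made of 6 of the 45 RNA-Seq libraries of the series, the 3 libraries of DMSO 60 min set against the 3 libraries of DMSO 30 min. In both groups purified spores of Saccharomyces cerevisiae strain SK1 had been shaken in YPD, a medium of yeast extract, peptone and glucose, at 30 °C with DMSO, the solvent in which rapamycin was added to the other arm, for 60 min or for 30 min. The series also holds purified spores, DMSO at 5 other times from 0 to 360 min, and all 7 times with 2000 nM rapamycin, an inhibitor of the protein kinase complex TORC1, with 3 libraries for each of the 15 conditions. The libraries carry the letters A, B and C, and the sources used here do not say whether a letter stands for a spore preparation of its own, so the spread between letters may be partly technical.

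A spore is a dormant cell with a thick wall, low metabolism, stored trehalose and a stock of stress and carbon-starvation transcripts laid down when sporulation took place in acetate medium. On meeting glucose and nitrogen it leaves dormancy, loses its resistance, rebuilds its ribosomes and its metabolism, takes up water, and then grows out of the spore wall before the first bud appears. Glucose acts through the Ras and protein kinase A pathway and through glucose repression, and TORC1 couples amino acids and other nutrients to ribosome production and, through the GATA transcription factors, to the use of poor nitrogen sources.

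The read counts per library were 11355863 to 14522407 at DMSO 60 min and 9448289 to 14461348 at DMSO 30 min. Of 6723 genes, 5778 reached 1 CPM, a count scaled to a library of 1000000 counts, in at least 3 of the 6 libraries and were tested. A gene is said to have risen or fallen where edgeR's quasi-likelihood test gave a Benjamini-Hochberg adjusted p under 0.05 and the difference was at least 2-fold. Sizes of change, list medians included, are log2 values of DMSO 60 min over DMSO 30 min unless another pair is named. By this rule 509 genes were higher at DMSO 60 min, 8.81% of those tested, and 821 were lower, 14.2%, so that 23.0% changed in all. Without the fold minimum, 71.0% of the genes had an adjusted p under 0.05, 34.0% with a higher and 37.0% with a lower level at 60 min. The 6 libraries did not overlap between the times in 75.1% of all genes tested and in 1324 of the 1330 genes that changed, and 1326 of the 1330 moved the same way in letters A, B and C. The falls were the larger ones: 158 genes fell and 58 rose at least 4-fold, and 27 fell and 5 rose at least 8-fold.

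The genes that rose took up much of the mRNA pool. They held 37.1, 35.2 and 39.5% of all counts in DMSO 60 min libraries A, B and C, against 17.7, 16.9 and 17.6% in DMSO 30 min libraries A, B and C. The genes that fell held 2.51, 3.07 and 2.32% of counts at 60 min, against 10.6, 12.3 and 12.1% at 30 min. This shift in composition sets the scale of every fold change below. The TMM scaling used here gave, over the 6 libraries, factors of 0.826 to 0.878 at 60 min and 1.14 to 1.18 at 30 min, and centred the median gene at -0.04 on the log2 scale. Scaling to library totals alone moved the median of all genes by a further -0.44 and gave 222 genes higher and 1527 lower. In each list described below at least as many genes were called lower under that scaling as are given here. A change below is therefore a change relative to the other transcripts, and in cultures sampled whole, fewer cells of one kind and less RNA per cell cannot be told apart.

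**Figure D1:**
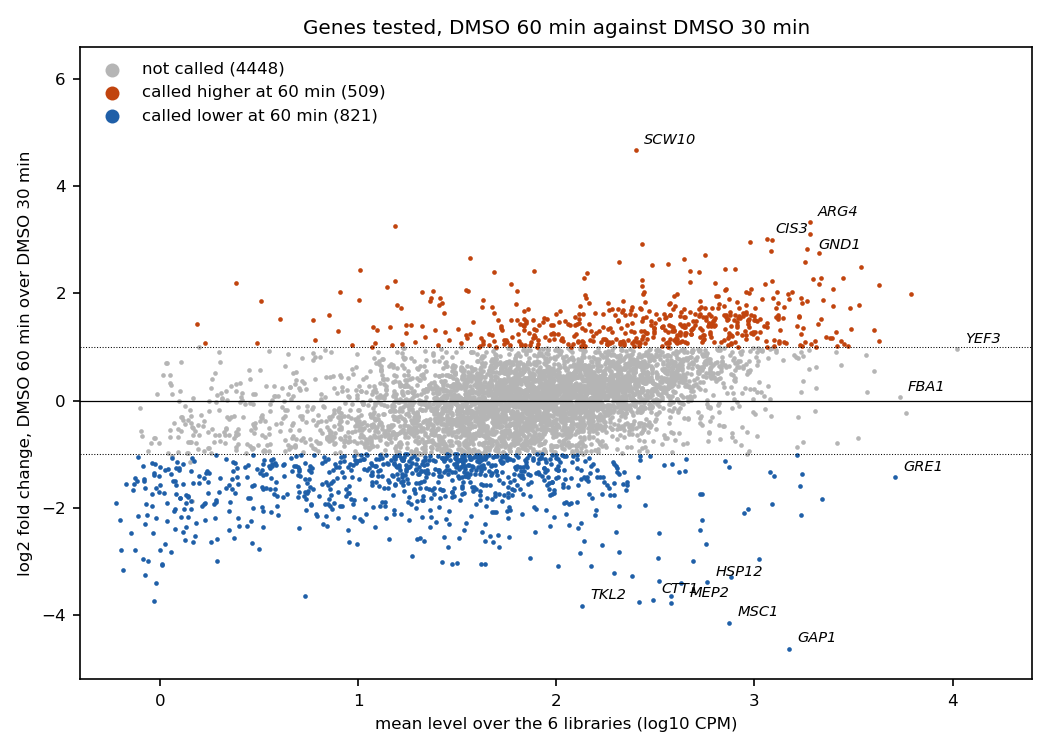
Each point is one of the 5778 genes tested, with its mean level over the 6 DMSO libraries on the horizontal axis (log10 of CPM) and its log2 fold change, DMSO 60 min over DMSO 30 min, on the vertical axis. Orange points are the 509 genes called higher and blue points the 821 called lower, dotted lines mark 2-fold, and the labelled extremes are SCW10 at 4.68 and GAP1 at -4.63.

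The wall of the growing cell gave the largest rise of the step. Spores are enclosed in a wall with outer layers of chitosan and dityrosine that growing cells lack, and the proteins of the vegetative wall have to be made anew during outgrowth. Of 36 tested genes for proteins and enzymes of that wall, 20 rose and 2 fell, with a list median of 1.28 on the log2 scale beside -0.04 for all genes. SCW10 (YMR305C, chrXIII:879063-880232 in build R64), which encodes a glucanase-like wall protein, had 499, 325 and 634 CPM in DMSO 60 min libraries A, B and C, against 24.0, 15.2 and 16.9 CPM in DMSO 30 min libraries A, B and C. The lowest library at 60 min lay more than 10 times above the highest at 30 min, and no other gene rose as much (log2 fold change 4.68, SE 0.26, adjusted p = 6.8e-07). CIS3, a mannoprotein of the Pir family, had 2123, 1685 and 2387 CPM at 60 min, against 251, 245 and 254 CPM at 30 min. GAS1, which elongates glucan chains, had 1499, 1351 and 2209.6 CPM at 60 min, against 234, 178 and 226 CPM at 30 min. In both genes the times were far apart, and library C was highest at 60 min (log2 fold changes 3.01, SE 0.14, and 2.95, SE 0.19). CCW12, an abundant mannoprotein, and CWP2, a wall protein bound through glucan, rose by 2.76 and 2.64. Together the 36 genes took 2.15, 1.97 and 2.35% of counts at 60 min, against 0.845, 0.762 and 0.775% at 30 min. The 2 members that fell were DSE1, which acts in daughter cell separation, with 4.81, 4.92 and 1.76 CPM at 60 min, against 14.3, 10.5 and 11.5 CPM at 30 min, and the cold-shock mannoprotein TIR4, whose log2 fold change was -1.04 and whose call was lost without DMSO 60 min library C or without DMSO 30 min library C.

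Genes for polarised growth were mostly not called, unlike the wall genes. Of 34 tested genes of actin polarity and the septin ring, 4 rose and none fell (2 and 2 with library totals alone), and the list median of 0.20 turned to -0.24 when library totals alone were used for scaling. One of the 4 was GIC2, an effector of the GTPase Cdc42, with 498, 375 and 563 CPM at 60 min, against 72.8, 55.2 and 56.6 CPM at 30 min (log2 fold change 2.93, SE 0.16). Another was RSR1, the GTPase that marks the bud site, with 473, 434 and 442 CPM at 60 min, against 151, 139.9 and 125 CPM at 30 min. The 2 times did not overlap in either gene. PMA1, the proton pump of the plasma membrane, had 1197, 1247 and 1966 CPM at 60 min, against 418, 292 and 348 CPM at 30 min (log2 fold change 2.02, SE 0.20). In the secretory pathway 1 of 41 tested genes fell and none rose, with a median of -0.02 that was positive at 0.01 with DESeq2 size factors. That gene was KAR2, the Hsp70 of the endoplasmic reticulum, with 244, 271 and 254 CPM at 60 min, against 822, 788 and 893 CPM at 30 min.

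Ribosomal protein genes rose almost as a block. Of 57 tested genes of the small subunit 50 rose and 1 fell (median 1.50), and of 81 of the large subunit 70 rose and none fell (median 1.39). With library totals alone both medians stayed positive, at 1.06 and 0.95, with 34 and 29 genes called higher. The small-subunit genes took 4.89, 5.12 and 5.75% of counts at 60 min, against 2.48, 2.58 and 2.87% at 30 min, and the large-subunit genes 6.25, 6.55 and 7.19%, against 3.47, 3.68 and 3.90%. RPS31, which encodes a ribosomal protein fused to ubiquitin, had 2979, 3274 and 4280.2 CPM at 60 min, against 802, 891 and 1118 CPM at 30 min. RPP2B, a protein of the ribosomal stalk, had 1858, 1861 and 2215 CPM at 60 min, against 484, 507 and 540.0 CPM at 30 min. In both, library C was highest at either time and the times did not overlap (log2 fold changes 1.87, SE 0.18, and 1.92, SE 0.11). The exception was RPS9A, with 119.8, 119 and 120.4 CPM at 60 min, against 327, 297 and 384 CPM at 30 min (log2 fold change -1.52, SE 0.10). Its paralog RPS9B, which encodes nearly the same protein, went the other way, with 1410.2, 1263 and 1435 CPM at 60 min, against 475, 461 and 504 CPM at 30 min (log2 fold change 1.48, SE 0.10). No stretch of a read's length was found in more than 1 place in the reference genome for either RPS9 gene.

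The factors that build the ribosome moved less than its proteins. Of 107 tested ribosome biogenesis factors 10 rose at least 2-fold and none fell, near the 8.81% of all genes, yet 106 had an adjusted p under 0.05 with a higher level at 60 min, beside 34.0% of all genes. Their median was 0.67, and 0.23 with library totals alone, when 2 were called higher. Among the 16 tested genes of RNA polymerase I, the enzyme that transcribes the large ribosomal RNA, 4 rose and none fell (median 0.80), and with library totals alone none was called and the median was 0.36. GAR1, a protein of the H/ACA particles that modify ribosomal RNA, had 1158, 1136 and 1239.7 CPM at 60 min, against 294, 304 and 329 CPM at 30 min. NOP56, a protein of the C/D particles, had 2129.9, 2031 and 2101 CPM at 60 min, against 788, 662 and 664 CPM at 30 min. Both were the largest rises of the list, with tight libraries at either time (log2 fold changes 1.89, SE 0.10, and 1.53, SE 0.11). RPA43, a subunit of RNA polymerase I, had 500.2, 486 and 482 CPM at 60 min, against 232, 212 and 240.3 CPM at 30 min. Its log2 fold change was 1.07 (SE 0.08) and fell just under the 2-fold minimum when DMSO 30 min library B was left out. By contrast NSR1, a nucleolar protein that had risen in the step before, had 2171, 2338 and 2335 CPM at 60 min, against 1422, 1449.7 and 1563 CPM at 30 min, a log2 fold change of 0.59 (SE 0.11) that did not reach 2-fold.

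The promoters of these genes carry letters known to be shared by the regulon, and are shown to let the match be seen. In yeast, growth-regulated nucleolar genes are known for a pair of elements called PAC and RRPE, the first bound by Dot6 and Tod6 and the second by Stb3. Windows of 250 bases before to 50 bases after each gene's start, taken from RefSeq for build R64, were complete for 5588 of the 5778 genes tested, and each motif was searched on both strands. GATGAG (PAC) lay in the windows of all but 6 of 107 biogenesis factors, 94.4%, and in 13 of 16 of RNA polymerase I, 81.2%, beside 20% of all windows. Over all windows the share of genes that rose hardly differed with PAC. It was 8.7% with no match, 9.95% with 1 and 9.2% with 2 or more. The median log2 fold changes of these classes were -0.07, 0.15 and 0.53. AAAATTT (RRPE), whose matches on the 2 strands overlap, lay in all but 6 of the 107 as well, beside 23.9% of all windows. Of genes with no RRPE match 7.88% rose, with 1 match 10.6%, and with 2 or more 14.2%. The promoters of GAR1 (chrVIII:283249-283548, minus strand) and RPA43 (chrXV:960133-960432, minus strand) follow, with matches to either element in capitals. In GAR1 the PAC match lay 120 to 125 and the RRPE match 131 to 137 bases before the start codon, and in RPA43 they lay 177 to 182 and 150 to 156 bases before it. The strain sequenced here is SK1 and the reference sequence is not, so single bases may differ.
GAR1: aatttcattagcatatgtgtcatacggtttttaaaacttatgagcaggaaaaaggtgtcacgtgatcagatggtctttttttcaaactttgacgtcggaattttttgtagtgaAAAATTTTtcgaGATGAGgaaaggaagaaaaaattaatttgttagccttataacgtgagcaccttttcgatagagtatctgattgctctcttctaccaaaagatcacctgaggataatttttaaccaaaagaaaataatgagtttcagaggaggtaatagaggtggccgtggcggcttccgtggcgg
RPA43: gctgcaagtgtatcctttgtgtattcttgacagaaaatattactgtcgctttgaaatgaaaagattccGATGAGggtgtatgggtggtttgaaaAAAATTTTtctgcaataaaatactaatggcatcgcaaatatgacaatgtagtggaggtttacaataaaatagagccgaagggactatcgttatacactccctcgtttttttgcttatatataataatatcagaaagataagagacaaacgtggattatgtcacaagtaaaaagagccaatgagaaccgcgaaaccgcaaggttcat
The promoter matches say only that these letters are present. The Rap1 motif CCCATAC, searched for because Rap1 binds most ribosomal protein promoters, lay in 3.51% of small-subunit and 4.94% of large-subunit windows beside 1.88% of all. Only exact copies within the window were counted, so these shares do not say how many of the promoters hold a Rap1 site.

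Further along the path to protein, 11 of 20 tested genes for the enzymes that charge tRNA in the cytosol rose and none fell (median 1.09), and 3 were called higher with library totals alone (median 0.65). ILS1, which charges the isoleucine tRNA, had 1964, 1820.2 and 2145 CPM at 60 min, against 620.1, 531 and 593 CPM at 30 min (log2 fold change 1.73, SE 0.11). The times were more than 1000 CPM apart in every letter. Of 39 tested translation factors 8 rose and none fell (median 0.75), against 1 higher and 1 lower with library totals alone (median 0.31). For the copies of elongation factor 2, EFT1 and EFT2, 83.4% of read-length stretches occur in both genes, so their counts are not independent. RNA polymerase III, which makes tRNA, did not share the rise: of 19 tested genes none rose and 2 fell, TFC8 and TFC4, subunits of the factor TFIIIC, by 1.32 and 1.09 on the log2 scale. The list median of 0.05 was -0.40 with library totals alone. Of 21 tested chaperones that fold new proteins at the ribosome or after it, 7 rose and 1 fell (median 0.48), and with library totals alone none was called higher and the median was 0.03.

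**Figure D2:**
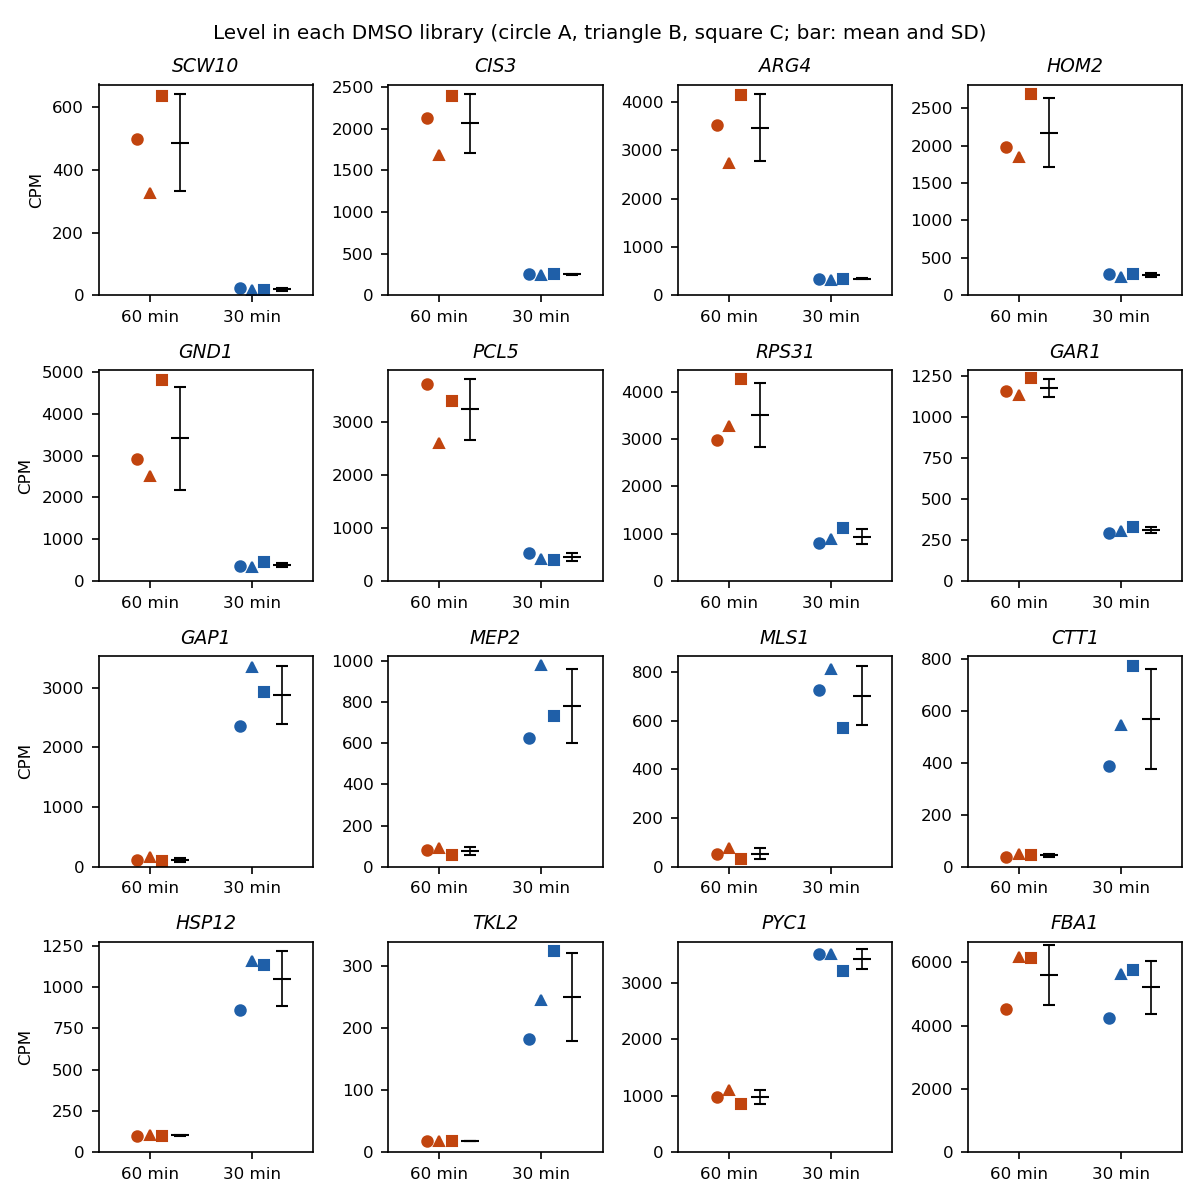
Levels of 16 genes in each DMSO library (CPM, linear axes from 0), with 60 min in orange to the left and 30 min in blue to the right, circles for letter A, triangles for B and squares for C, and a bar for the mean and SD of 3 libraries. The 2 times are apart in every panel but that of FBA1, an enzyme of glycolysis, where 4521 to 6158 CPM at 60 min overlap 4248 to 5753 CPM at 30 min.

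The synthesis of amino acids rose most broadly after the ribosomal proteins. Of 62 tested genes 45 rose and 1 fell (median 1.38, and 0.93 with library totals alone), and the list took 8.02, 7.25 and 8.44% of counts at 60 min, against 4.51, 4.25 and 4.37% at 30 min. Many of these genes are activated by Gcn4, a transcription factor whose own translation rises when amino acids are short. ARG4 (YHR018C, chrVIII:140011-141402), the last enzyme of arginine synthesis, had 3529.7, 2738 and 4133 CPM at 60 min, against 341, 323 and 342 CPM at 30 min. The 30 min libraries were within 20 CPM of each other and all lay far below those of 60 min (log2 fold change 3.33, SE 0.16, adjusted p = 5.9e-07). HOM2, which stands before the branch to threonine and methionine, had 1984, 1842 and 2694 CPM at 60 min, against 287, 237 and 276 CPM at 30 min (log2 fold change 2.99, SE 0.16). HIS4, a histidine enzyme often used to report on Gcn4, had 899, 781 and 1253 CPM at 60 min, against 144, 137 and 151 CPM at 30 min (log2 fold change 2.73, SE 0.16). The times did not overlap in either gene. ARG1, HIS3 and ARO3, of arginine, histidine and aromatic amino acid synthesis, rose by 2.15, 2.41 and 2.45. By the study's strain list, its strains carry the mutant markers ura3, leu2, trp1, his3 and lys2. The reads of HIS3 are therefore of a marker locus and not of an intact gene. The same holds for LEU2 and TRP1 of this list and for URA3 of pyrimidine synthesis. For LYS2 the strain list also gives a copy inserted at ho, so its reads may come from either locus.

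The exception was GDH1, which makes glutamate from ammonium, with 587, 785 and 577 CPM at 60 min, against 2592, 3184 and 2559 CPM at 30 min (log2 fold change -2.13, SE 0.16). PCL5, a cyclin whose kinase partner marks Gcn4 for destruction, had 3703, 2602 and 3389 CPM at 60 min, against 531, 417 and 390.5 CPM at 30 min (log2 fold change 2.82, SE 0.17). The mRNA of GCN4 itself had 4436, 4868 and 4844 CPM at 60 min, against 2586, 2528 and 2559.8 CPM at 30 min. It was higher at 60 min in every library, with a log2 fold change of 0.85 (SE 0.12, adjusted p = 1.1e-04) that stayed under 2-fold. Counts of mRNA give no reading of how much Gcn4 protein was made.

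The core of the Gcn4 site, TGACTC, was searched for after the values had been seen. It lay in 33 of 62 windows of amino acid synthesis genes, 53.2%, in 8 of 20 of the tRNA synthetases, 40%, and in 8.36% of all windows. Among genes with no match 7.97% rose, with 1 match 18.8%, and with 2 or more 29%, of 31 genes. The shares that fell were 13.3, 13.1 and 19.4%. Genes with 2 or more matches thus changed more often in both directions than genes with none. Of the genes that rose at least 4-fold and had a complete window, 19 of 55 held a match, 34.5%. The promoters of ARG4 (chrVIII:141353-141652, minus strand) and HIS4 (chrIII:68284-68583, minus strand) are shown as examples with 1 and 2 matches, in capitals. The match of ARG4 lay 174 to 179 bases before the start codon, and those of HIS4 lay 194 to 199 and 238 to 243 bases before it.
ARG4: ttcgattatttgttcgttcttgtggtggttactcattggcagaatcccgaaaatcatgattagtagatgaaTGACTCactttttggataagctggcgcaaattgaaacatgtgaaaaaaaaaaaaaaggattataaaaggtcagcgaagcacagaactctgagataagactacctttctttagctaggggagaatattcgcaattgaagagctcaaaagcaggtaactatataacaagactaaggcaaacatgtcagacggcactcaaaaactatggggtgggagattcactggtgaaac
HIS4: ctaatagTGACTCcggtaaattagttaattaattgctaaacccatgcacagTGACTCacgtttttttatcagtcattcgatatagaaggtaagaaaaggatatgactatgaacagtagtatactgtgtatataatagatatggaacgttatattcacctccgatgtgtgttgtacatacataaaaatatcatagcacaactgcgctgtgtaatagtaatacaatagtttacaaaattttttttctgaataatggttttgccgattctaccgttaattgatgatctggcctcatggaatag

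Sulfate uptake and methionine synthesis rose with the other amino acids. Of 25 tested genes 10 rose and none fell (median 0.94), and 5 were called higher with library totals alone. SUL1, a sulfate permease, had 3406, 3122 and 2789 CPM at 60 min, against 572, 566 and 372 CPM at 30 min, and SUL2, the other sulfate permease, rose by 2.23. In SUL1 library C was the lowest at either time, and the times did not overlap (log2 fold change 2.59, SE 0.18). In purine and pyrimidine synthesis 9 of 32 tested genes rose and 1 fell (median 0.67), and 3 were called higher with library totals alone. URA2, the first enzyme of the pyrimidine path, had 10074, 8612 and 10850.2 CPM at 60 min, against 2765, 2143 and 2332 CPM at 30 min (log2 fold change 1.99, SE 0.16).

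In central carbon metabolism isozymes of several steps parted, while the pathways of acetate use, described further on, fell as lists. Glycolysis did not rise: of 21 tested genes none rose and 6 fell (median -0.68). At any fold, 13 of the 21 had an adjusted p under 0.05 with a lower level at 60 min, and none with a higher one. FBA1 and CDC19, given next, thus do not stand for the list. FBA1 had overlapping libraries, with 4521, 6158 and 6125 CPM at 60 min, against 4248, 5629.9 and 5753 CPM at 30 min, and CDC19, the main pyruvate kinase, had 3545, 4202 and 4069 CPM at 60 min, against 2884, 3651 and 3840.0 CPM at 30 min. The pentose phosphate pathway supplies NADPH and ribose, and of 7 of its genes picked after their values were seen 6 rose. GND1, 6-phosphogluconate dehydrogenase, had 2917, 2509.8 and 4818 CPM at 60 min, against 367, 344 and 447 CPM at 30 min. Library C was highest at either time, and even the lowest library at 60 min was more than 5 times the highest at 30 min (log2 fold change 3.11, SE 0.24, adjusted p = 2.7e-06). TKL1, transketolase, had 3162, 3186 and 4463 CPM at 60 min, against 668, 629.9 and 872 CPM at 30 min (log2 fold change 2.28, SE 0.18). TAL1, SOL3 and RPE1 rose by 1.37, 1.65 and 1.17, and ZWF1, which opens the pathway, by 1.11, though under 2-fold without DMSO 60 min library C. With library totals alone TAL1, RPE1 and ZWF1 were under 2-fold. RKI1, ribose phosphate isomerase, was not called, with 71.6, 89.3 and 81.3 CPM at 60 min, against 75.2, 64.4 and 74.9 CPM at 30 min.

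For these same steps the second isozyme went down. GND2 had 137, 212 and 161 CPM at 60 min, against 688, 879 and 1092 CPM at 30 min (log2 fold change -2.42, SE 0.20). TKL2 had 17.7, 18.2 and 18.5 CPM at 60 min, against 183, 245 and 324 CPM at 30 min (log2 fold change -3.83, SE 0.20, adjusted p = 6.7e-07). The 60 min libraries of TKL2 were within 1 CPM of each other, while library A was lowest and C highest at 30 min. For 15 isozyme pairs drawn up after the values had been seen, the form known from growth on glucose was put first, except for the citrate synthases. Their first member, CIT1, is reported by the study as downregulated by glucose. Of the 15 pairs, 7 had the first member up and the second down. These were GND1 and GND2, TKL1 and TKL2, the transaldolases TAL1 (1.37) and NQM1 (-1.89), the lactonases SOL3 (1.65) and SOL4 (-1.10), the pyruvate carboxylases PYC2 (2.03) and PYC1 (-1.83), the external NADH dehydrogenases NDE1 (1.84) and NDE2 (-2.46), and the aldehyde dehydrogenases ALD6 (2.50) and ALD4 (-1.42). In 5 more pairs the second member fell and the first was not called, as in the enolases ENO2 (-0.31, not called) and ENO1 (-2.09). In 2 pairs both members fell, the glutamate dehydrogenases GDH1 (-2.13) and GDH3 (-2.69) and the citrate synthases CIT1 (-2.83) and CIT2 (-2.96), and in the peroxiredoxins TSA1 and TSA2 neither was called. PYC1 had 977, 1111 and 861 CPM at 60 min, against 3514, 3517 and 3209 CPM at 30 min. PYC2 had 2142, 1672 and 2448 CPM at 60 min, against 554, 432 and 509.9 CPM at 30 min. In each of these, 3.11% of the read-length stretches recur elsewhere.

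Of 15 tested hexose transporters and sensors 1 rose and 4 fell (median -0.37), and the list took 0.267, 0.358 and 0.302% of counts at 60 min, against 0.465, 0.570 and 0.493% at 30 min. HXT1, a low-affinity transporter induced by high glucose, had 40.6, 58.5 and 69.9 CPM at 60 min, against 18.5, 21.8 and 19.7 CPM at 30 min (log2 fold change 1.46, SE 0.18). HXT3, of the same class, was higher in every 60 min library but under 2-fold (0.74). HXT11 and HXT13 fell, at under 10 CPM in every library, and 45.1% and 7.46% of their read-length stretches recur elsewhere.

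Genes for making glucose and energy from acetate fell most as a list. Of 17 tested genes of gluconeogenesis and the glyoxylate cycle 13 fell and none rose (median -1.74), and they took 0.0985, 0.117 and 0.0891% of counts at 60 min, against 0.640, 0.662 and 0.594% at 30 min. MLS1, malate synthase of the glyoxylate cycle, had 50.1, 76.6 and 32.2 CPM at 60 min, against 728, 813 and 571 CPM at 30 min (log2 fold change -3.77, SE 0.28). ACH1, which acts on acetyl-CoA, had 32.9, 45.5 and 32.5 CPM at 60 min, against 488, 535 and 435 CPM at 30 min (log2 fold change -3.75, SE 0.15). In both genes every 60 min library was under 80 CPM and every 30 min library over 400 CPM. ACS1, the acetyl-CoA synthetase of acetate growth, and FBP1, the fructose bisphosphatase of gluconeogenesis, fell by 3.23 and 2.90 on the log2 scale. ICL1, isocitrate lyase and the partner of MLS1, was not called, with 60.6, 60.4 and 99.7 CPM at 60 min, against overlapping values of 79.1, 93.7 and 94.4 CPM at 30 min.

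Fatty acid oxidation fell with them, with 15 of 19 tested genes lower, none higher and all 19 at an adjusted p under 0.05 (median -1.65). POT1, the peroxisomal thiolase, had 39.9, 50.1 and 37.6 CPM at 60 min, against 166, 191 and 186 CPM at 30 min. CAT2, the carnitine acetyltransferase that moves acetyl units between compartments, had 55.0, 62.2 and 60.3 CPM at 60 min, against 249.5, 257 and 256 CPM at 30 min. The 30 min libraries of CAT2 were within 8 CPM of each other, and its SE of 0.08 was small beside the log2 fold change of -2.14. In the tricarboxylic acid cycle 5 of 16 tested genes fell and none rose (median -0.66). CIT1, the mitochondrial citrate synthase, had 49.7, 67.6 and 40.2 CPM at 60 min, against 399.8, 373 and 319.5 CPM at 30 min (log2 fold change -2.83, SE 0.17). The respiratory chain did not follow: of 38 tested nuclear genes 3 rose and 2 fell, and its median of 0.40 was -0.05 with library totals alone. Mitochondrial ribosomal proteins (1 of 71 fell, median 0.25) and mitochondrial import (2 of 28 rose and 1 fell, median 0.37) also had medians that turned negative under that scaling. In fatty acid synthesis the desaturase OLE1 had 464, 597 and 500.0 CPM at 60 min, against 1877, 1490.0 and 2429.5 CPM at 30 min, so that it fell by 1.93 on the log2 scale, while the elongase ELO3 rose by 1.82.

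The single largest fall was that of an amino acid permease. Nitrogen catabolite repression keeps genes for the use of poor nitrogen sources silent when good ones are at hand, by holding the GATA activators Gln3 and Gat1 out of the nucleus. Of 29 tested genes of this regulon 16 fell and none rose (median -1.32), and they took 0.242, 0.257 and 0.225% of counts at 60 min, against 0.951, 1.18 and 0.970% at 30 min. GAP1 (YKR039W, chrXI:515063-516871), the general amino acid permease, was among the genes with the most reads at 30 min. It had 107, 158 and 92.4 CPM at 60 min, against 2368, 3342 and 2931 CPM at 30 min (log2 fold change -4.63, SE 0.23, adjusted p = 6.2e-07). Library B was highest at either time, and the highest 60 min library lay more than 10 times below the lowest at 30 min. MEP2, an ammonium permease that also senses ammonium, had 81.3, 90.1 and 55.9 CPM at 60 min, against 628, 978 and 735 CPM at 30 min (log2 fold change -3.40, SE 0.21). DIP5, the permease for glutamate and aspartate, had 65.8, 65.8 and 40.2 CPM at 60 min, against 804, 680.1 and 626 CPM at 30 min (log2 fold change -3.66, SE 0.19). The groups were at least 6 times apart in each of these permeases.

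The other ammonium permeases MEP1 and MEP3 fell by 1.57 and 1.68, the GATA repressor DAL80 by 2.53, and the allantoate and urea transporters DAL5 and DUR3 by 1.32 and 2.03, all on the log2 scale. GLN1, glutamine synthetase, was not called and its libraries overlapped, with 535, 547 and 655 CPM at 60 min, against 574, 658 and 618 CPM at 30 min. The activators moved in opposite directions and under 2-fold. GLN3 had 315, 285 and 296 CPM at 60 min, against 156, 154 and 150.3 CPM at 30 min, and GAT1 had 272, 255 and 247 CPM at 60 min, against 302, 364 and 332 CPM at 30 min (log2 fold changes 0.93 and -0.40). Amino acid permeases as a class were split, with 4 of 18 tested up and 3 down (1 and 8 with library totals alone), the branched-chain permease BAP3 rising by 2.38 and GAP1, DIP5 and the proline permease PUT4 falling.

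GATAAG, the core that GATA factors bind, was also searched for after the values had been seen. It lay in 14 of 29 windows of the nitrogen list, 48.3%, and in 14.5% of all windows, and 12.8% of genes with no match fell, 14.6% with 1 and 31% of the 84 genes with 2 or more. The promoters of GAP1 (chrXI:514813-515112, plus strand) and MEP2 (chrXIV:357203-357502, plus strand) each held 1 match in capitals, read on the other strand in MEP2, 237 to 242 and 228 to 233 bases before the start codon. Regulatory sites of these genes may also lie outside the window.
GAP1: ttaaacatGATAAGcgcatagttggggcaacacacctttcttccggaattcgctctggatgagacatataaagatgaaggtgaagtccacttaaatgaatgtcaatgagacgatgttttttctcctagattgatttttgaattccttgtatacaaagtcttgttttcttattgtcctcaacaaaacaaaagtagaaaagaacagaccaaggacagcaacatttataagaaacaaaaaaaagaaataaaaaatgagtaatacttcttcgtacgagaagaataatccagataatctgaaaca
MEP2: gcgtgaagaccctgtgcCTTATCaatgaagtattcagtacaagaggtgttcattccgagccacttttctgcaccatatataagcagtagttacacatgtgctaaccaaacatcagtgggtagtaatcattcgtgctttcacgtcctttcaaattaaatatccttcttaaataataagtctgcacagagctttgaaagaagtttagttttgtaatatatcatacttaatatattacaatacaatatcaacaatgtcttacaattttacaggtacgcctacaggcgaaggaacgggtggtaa

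Stress transcripts carried over from the spore went on falling. Of 24 tested stress-induced chaperones 11 fell and 2 rose (median -0.75), and of 18 genes for the storage carbohydrates trehalose and glycogen 7 fell and none rose (median -0.85). HSP12, a small membrane-associated heat shock protein abundant in spores, had 99.5, 107 and 102 CPM at 60 min, against 859, 1159 and 1134 CPM at 30 min (log2 fold change -3.39, SE 0.13). CTT1, cytosolic catalase, had 38.2, 49.0 and 46.0 CPM at 60 min, against 389, 544 and 775 CPM at 30 min (log2 fold change -3.72, SE 0.24). In both, library A was lowest at 30 min, and the 60 min libraries were alike. MSC1, a gene named for meiotic recombination between sister chromatids, had the largest fall after GAP1, with 82.2, 84.1 and 78.5 CPM at 60 min, against 1119.9, 1406 and 1707 CPM at 30 min (log2 fold change -4.15, SE 0.16). GDB1, the glycogen debranching enzyme, fell by 2.73 on the log2 scale, and SSA3, a stress-induced Hsp70, had 118, 122 and 94.6 CPM at 60 min, against 813, 847 and 943 CPM at 30 min. NTH1, the neutral trehalase that breaks down the spore's trehalose, was not called and its libraries overlapped, with 402, 422 and 448 CPM at 60 min, against 411, 449.6 and 415 CPM at 30 min.

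HSP78, a disaggregase of the mitochondrial matrix, was 1 of the 2 stress-induced chaperones that rose. It had 199, 137 and 335 CPM at 60 min, against 51.7, 55.2 and 60.1 CPM at 30 min (log2 fold change 1.97, SE 0.26). The spread at 60 min was wide, but even library B was more than 2 times the highest library at 30 min. Vacuolar breakdown also held a rise among falls. Of 25 tested genes of autophagy and the vacuolar proteases 10 fell and 1 rose (median -0.90). The gene that rose was ATG1, the kinase that starts autophagy, with 550.0, 346 and 443 CPM at 60 min, against 125, 97.4 and 100.3 CPM at 30 min (log2 fold change 2.02, SE 0.17), whereas ATG7 and ATG8, of the conjugation system, fell by 1.90 and 1.07. Of 34 proteasome genes 7 fell and none rose (median -0.64).

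The stress response element AGGGG (STRE), through which Msn2 and Msn4 act, lay in 10 of 18 windows of the trehalose and glycogen list, 55.6%, in 12 of 24 of the stress-induced chaperones, 50%, and in 21.7% of all windows. Of genes with no match 10.9% fell, with 1 match 19.6%, and with 2 or more 37.4% of 163 genes. The promoters of HSP12 (chrVI:107006-107305, plus strand) and CTT1 (chrVII:654384-654683, plus strand) are shown with their matches in capitals, all on the other strand. HSP12 held 2, at 186 to 190 and 228 to 232 bases before the start codon, and CTT1 held 1, at 129 to 133 bases before it.
HSP12: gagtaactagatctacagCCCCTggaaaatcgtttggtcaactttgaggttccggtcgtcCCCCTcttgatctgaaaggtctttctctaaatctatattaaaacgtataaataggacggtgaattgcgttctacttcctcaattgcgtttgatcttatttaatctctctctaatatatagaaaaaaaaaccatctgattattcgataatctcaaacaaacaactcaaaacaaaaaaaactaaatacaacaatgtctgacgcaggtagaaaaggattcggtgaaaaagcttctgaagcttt
CTT1: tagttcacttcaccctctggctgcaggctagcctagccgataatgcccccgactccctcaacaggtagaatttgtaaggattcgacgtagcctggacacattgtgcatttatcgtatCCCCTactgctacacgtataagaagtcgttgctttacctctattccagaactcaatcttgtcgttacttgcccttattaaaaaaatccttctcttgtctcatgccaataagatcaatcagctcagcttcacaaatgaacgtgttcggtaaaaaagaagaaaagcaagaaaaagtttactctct

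Transcripts of the spore wall and late sporulation were still being lost, and those of meiosis fell in this step as well. Of 38 genes of the spore wall and late sporulation 5 were too low to test (OSW1, SMA2, CDA2, LDS1 and PFS1), and of the other 33 tested genes 16 fell and none rose (median -0.97), and of 35 meiotic genes 16 fell and none rose (median -0.84). Most were low by then: MEK1, a meiotic checkpoint kinase, was under 1 CPM in every 60 min library and at 2 to 4 CPM at 30 min, and SPR3, a septin of sporulation, had 3.21, 2.31 and 3.87 CPM at 60 min, against 12.5, 8.82 and 11.9 CPM at 30 min. The label of the samples was read against marker lists. The 12 spore markers summed to 952 to 1378 CPM at 60 min, against 1771 to 2681 CPM at 30 min, with 6 of 10 tested lower, and the 6 markers of spore stress to 3318 to 4890 CPM, against 8425 to 13369 CPM, with all 6 lower. The 11 markers of growing cells summed to 17076 to 21894 CPM at 60 min, against 8167 to 9512 CPM at 30 min, with 6 higher and none lower. Thus both kinds of transcript were present at either time. None of these markers stood at 0 in all 6 libraries. Ribosomal, small nuclear and small nucleolar RNA took at most 0.019% and the mitochondrial genome at most 0.023% of counts in any of the 6 libraries.

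Few genes of the cell cycle were called. CLN3, the G1 cyclin that acts first, had 109, 102 and 123 CPM at 60 min, against 54.7, 46.0 and 49.3 CPM at 30 min (log2 fold change 1.12, SE 0.10), the 1 rise among 14 tested genes of G1 cyclins and Start, of which 1 fell. With library totals alone CLN3 was not called (0.68) and 5 of the 14 were lower. CLN1 had 3.11, 1.91 and 2.18 CPM at 60 min, against 4.13, 3.13 and 3.54 CPM at 30 min. CLN2 had 1, 4 and 3 reads at 60 min, against 4, 2 and 8 at 30 min, and CLB6 had 4, 1 and 0 reads, against 2, 0 and 2, so neither was tested. Of 42 DNA replication genes 2 rose and 3 fell, and the median of 0.07 was -0.37 with library totals alone. MCM3, a subunit of the replicative helicase, rose by 1.62, and RNR2, of ribonucleotide reductase, fell by 1.32. Of 10 histone genes HTA2 alone fell (-1.69) and none rose, and of 23 mitotic regulators 1 fell and none rose. Of 34 mating genes 8 fell and 1 rose, the rise being FIG2, a wall adhesin (1.68). EGT2 and PCL9, of the late mitotic and early G1 set, fell by 1.12 and 1.72, and CHS2, the chitin synthase of the septum, overlapped between the times, with 4.31, 3.01 and 2.77 CPM at 60 min, against 3.60, 4.69 and 4.78 CPM at 30 min. ACT1, a reference gene in qRT-PCR, was itself higher at 60 min, with 908, 1049.8 and 1246 CPM, against 622, 672 and 768 CPM at 30 min (log2 fold change 0.60, SE 0.13, under 2-fold).

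Signalling genes were counted as well. Of 24 tested genes of TORC1 and its effectors 1 fell and none rose, with a median of 0.00 that was -0.45 with library totals alone. In the Ras and protein kinase A list 5 of 24 fell and none rose, among them TPK2, a catalytic subunit, by 1.42. Of 7 genes that the study had chosen as under both glucose and TORC1, 4 fell and none rose: CIT1, GPG1, RME1 and CRC1. RME1, a repressor of meiosis, had 41.5, 49.6 and 59.5 CPM at 60 min, against 114, 152 and 153 CPM at 30 min (log2 fold change -1.51, SE 0.15). DHR2, a helicase of ribosome synthesis on that list, had 161, 184 and 170.1 CPM at 60 min, against 126, 119.8 and 132 CPM at 30 min, a log2 fold change of 0.41 that was -0.03 with library totals alone. At any fold, 6 members of the list had an adjusted p under 0.05 with a lower level at 60 min, and DHR2 alone a higher one. GFD2 was among those lower, under 2-fold, with 343, 405 and 446 reads before scaling at 60 min, against 453, 778 and 1125 at 30 min. By qRT-PCR the paper reports both DHR2 and GFD2 as upregulated in germinating spores. Its series starts at the transfer into medium and is scaled to actin mRNA. The values here cover only the step from 30 to 60 min and another scaling, so the 2 are not directly comparable. In metal uptake 2 of 28 rose and 8 fell, with the copper transporter CTR1 up by 1.92 and the siderophore transporter SIT1 down by 2.69 on the log2 scale.

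**Figure D3:**
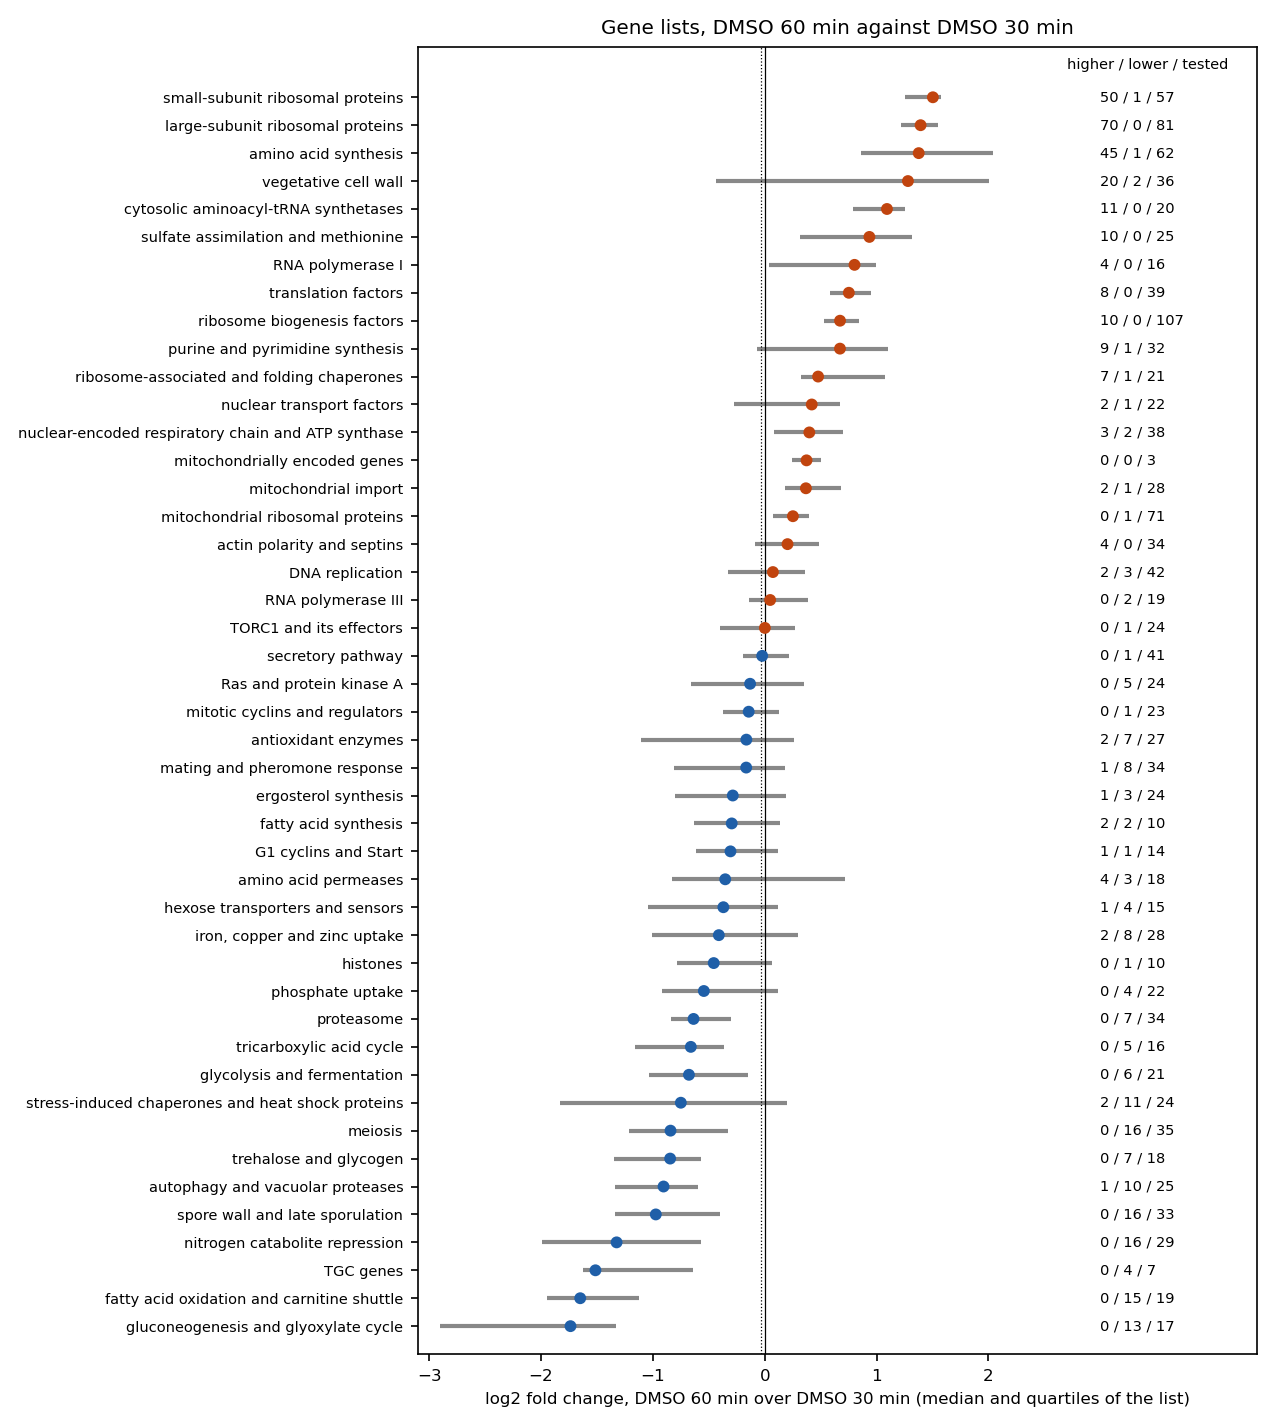
For each gene list, the point is the median log2 fold change, DMSO 60 min over DMSO 30 min, and the grey bar runs from the lower to the upper quartile, with the solid line at 0 and the dotted line at the median of all 5778 genes (-0.04). The numbers at the right give the genes called higher, called lower and tested, and orange and blue mark medians above and below 0. Small-subunit ribosomal proteins (1.50) and gluconeogenesis (-1.74) are at the ends, and the medians of the 8 lists from nuclear transport factors (0.42) down to RNA polymerase III (0.05), and of TORC1 and its effectors (0.00), turn negative when library totals alone set the scale.

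The step was next set against the same interval with rapamycin, which was measured in other libraries. Between rapamycin 30 min and rapamycin 60 min 312 genes rose and 368 fell, 5.39 and 6.36% of 5788 tested. Of the 5753 genes tested in both arms, 163 rose in both, 32% of the 509 genes that rose with DMSO and 52.6% of the 310 that rose with rapamycin, and no gene that rose with DMSO fell with rapamycin. Both arms lowered 256 genes, 31.8% of the 805 that fell with DMSO and 70.9% of the 361 that fell with rapamycin, and 18 genes that fell with DMSO rose with rapamycin. Genes that rose with DMSO had a median of 1.40 in that arm and of 0.63 with rapamycin, and genes that fell had medians of -1.43 and -0.57. Of these, 457 of 509 and 628 of 805 had the same sign with rapamycin, beside 64.5% of all genes. All these genes were picked by the 2-fold rule on the DMSO step itself, so their DMSO medians are large by selection. The smaller medians with rapamycin therefore do not measure how far the arms differ. The difference of the 2 steps was tested in 1 model over the 12 libraries. It was called in 1032 genes, 17.7% of 5841, with 465 above 0 (7.96%) and 567 below 0 (9.71%). Of these 184 had risen and 335 had fallen with DMSO in the direction of the difference. The DMSO libraries enter both that choice of genes and the difference, so a shared direction is favoured by construction.

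**Figure D4:**
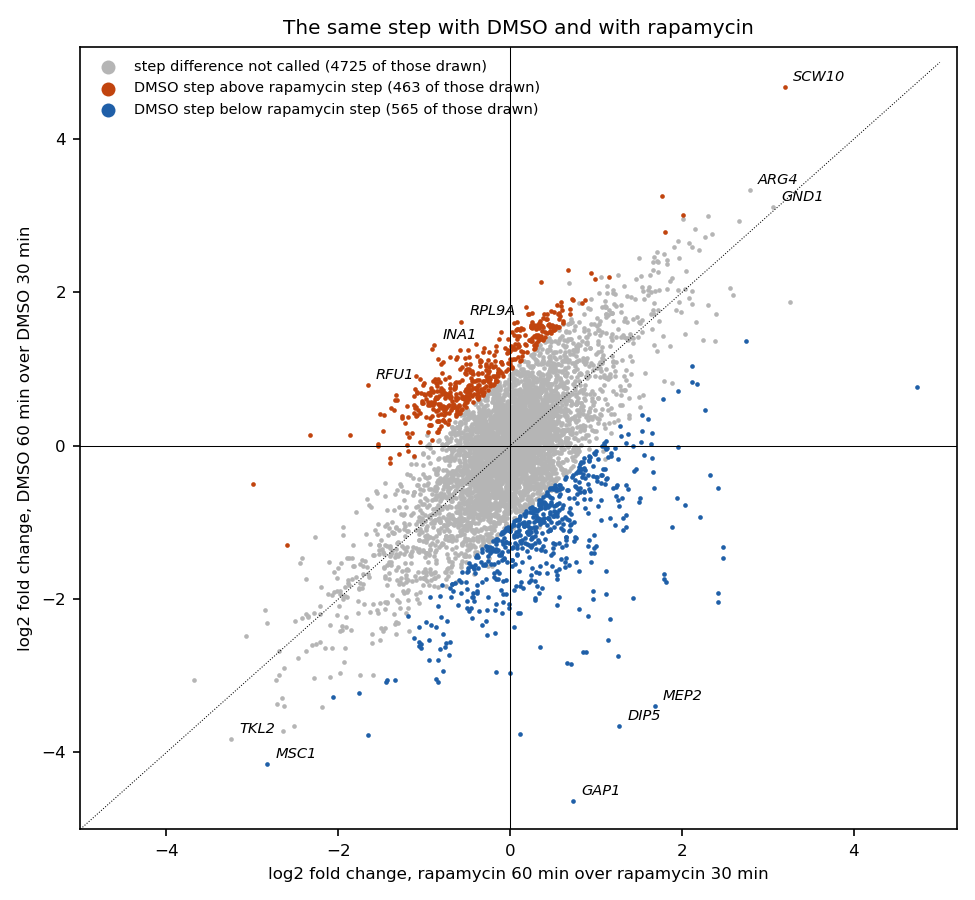
Each point is one of 5753 genes tested in both arms, with its log2 fold change at rapamycin 60 min over rapamycin 30 min on the horizontal axis and at DMSO 60 min over DMSO 30 min on the vertical axis, and the dotted line marks equal steps. Orange and blue points are genes whose step difference was called above (463) and below 0 (565). SCW10, ARG4 and GND1 lie high in both arms, while GAP1, MEP2 and DIP5 are far below 0 with DMSO and above it with rapamycin.

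Wall and amino acid genes rose in both arms. With rapamycin 17 of 36 wall genes rose (median 0.96), and 30 of 62 amino acid synthesis genes (median 0.95). The step difference was called in 3 of the 36 and in 8 of the 62, of which 4 were larger and 4 smaller with DMSO. GND1 had 3286, 2806 and 4347 CPM at rapamycin 60 min, against 394, 356 and 473 CPM at rapamycin 30 min. Its step difference of 0.07 (SE 0.33, adjusted p = 0.89) did not pass. Of the other pentose phosphate genes named, TKL1, TAL1, SOL3 and ZWF1 rose with rapamycin, RPE1 was not called (0.76) and RKI1 fell by 1.86. CCW12 and PMA1 rose in both arms as well, with step differences of 0.43 (SE 0.23) and -0.07 (SE 0.29) that did not pass either. SCW10 rose in both arms but further with DMSO, with 169, 161 and 174 CPM at rapamycin 60 min, against 19.6, 17.0 and 17.3 CPM at rapamycin 30 min (difference 1.51, SE 0.30, adjusted p = 0.0012). HSP12, CTT1 and TKL2 fell in both arms, and their step differences of -0.74 (SE 0.38), -1.06 (SE 0.49) and -0.56 (SE 0.42) did not pass. In rapamycin 60 min library C the level of each was about 2 times that in A, or more, with 121, 84.6 and 234 CPM of HSP12 in libraries A, B and C.

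The arms parted in the ribosome and in nitrogen genes. Ribosome biogenesis factors had a median of -0.70 with rapamycin, where 19 of 107 fell and none rose, and the step difference was called above 0 in all but 6 of the 107. For ribosomal proteins it was called above 0 in 48 of 57 genes of the small and 66 of 81 of the large subunit. NSR1 had 455, 785 and 390.1 CPM at rapamycin 60 min, against 1361, 1336 and 1283 CPM at rapamycin 30 min, so that it fell by 1.32 there (step difference 1.93, SE 0.28). RPL9A had the largest positive difference among ribosomal protein genes named under the rule, with 604, 760.4 and 927 CPM at DMSO 60 min, against 227, 221 and 278 CPM at DMSO 30 min, and 112, 215 and 102 CPM at rapamycin 60 min, against 189.7, 182 and 252 CPM at rapamycin 30 min. On the other side, 24 of 29 genes of the nitrogen list had a step difference called below 0, and 16 of the 29 rose with rapamycin (median 1.13). The arms were already apart in this list at 30 min. It took 1.33, 1.39 and 1.29% of counts at rapamycin 30 min, against 0.951, 1.18 and 0.970% at DMSO 30 min. DUR3 had 9.32, 10.0 and 8.49 CPM at DMSO 60 min, against 38.2, 36.0 and 36.9 CPM at DMSO 30 min, and 217, 204 and 262 CPM at rapamycin 60 min, against 44.8, 39.4 and 41.3 CPM at rapamycin 30 min (step difference -4.43, SE 0.15). GLN1, not called with DMSO, rose with rapamycin by 1.56. The step difference was also called below 0 in 13 of 18 trehalose and glycogen genes, 13 of 16 of the tricarboxylic acid cycle, 14 of 25 of autophagy and 12 of 19 of fatty acid oxidation. PYC1, which fell with DMSO, had a log2 fold change of 0.32 with rapamycin, whereas PYC2 rose in both arms (1.73 with rapamycin). Leaving out rapamycin 60 min library B or C moved the 1032 genes to 1277 or 780.

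Last, the step was placed in the DMSO time course. The steps from 10 to 30 min and from 60 to 120 min each share libraries with it, so their values are set side by side and not correlated. From 10 to 30 min 19.8% of genes changed, 10.8% up and 8.92% down, and from 60 to 120 min 18.3%, 6.44% up and 11.8% down. Mean shares of counts at 10, 30, 60 and 120 min were 2.38, 4.70, 5.82 and 6.30% for ribosome biogenesis factors and 1.17, 2.64, 5.25 and 8.82% for small-subunit ribosomal proteins. Biogenesis factors thus rose mostly before 30 min, with list medians of 1.04, 0.67 and 0.32 over the 3 steps, and ribosomal proteins of the small subunit had medians of 1.29, 1.50 and 0.95. Amino acid synthesis peaked at 60 min, with shares of 2.45, 4.38, 7.90 and 3.45% and step medians of 0.93, 1.38 and -0.95. Sulfate assimilation did so more steeply, with shares of 0.688, 2.26, 3.43 and 0.332% and 22 of 25 genes up, 10 up and then 23 down. SUL1 averaged 65.9 CPM at 10 min, 503 CPM at 30 min, 3106 CPM at 60 min and 87.6 CPM at 120 min. The nitrogen list turned at 30 min, with shares of 0.612, 1.03, 0.242 and 0.143%. GAP1 averaged 882 CPM at 10 min, 2880.3 CPM at 30 min, 119 CPM at 60 min and 69.2 CPM at 120 min. The gluconeogenesis list had shares of 0.989, 0.632, 0.101 and 0.0456%. The mating list, of which 8 genes fell and 1 rose in this step, had 23 genes rise between 60 and 120 min.

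**Figure D5:**
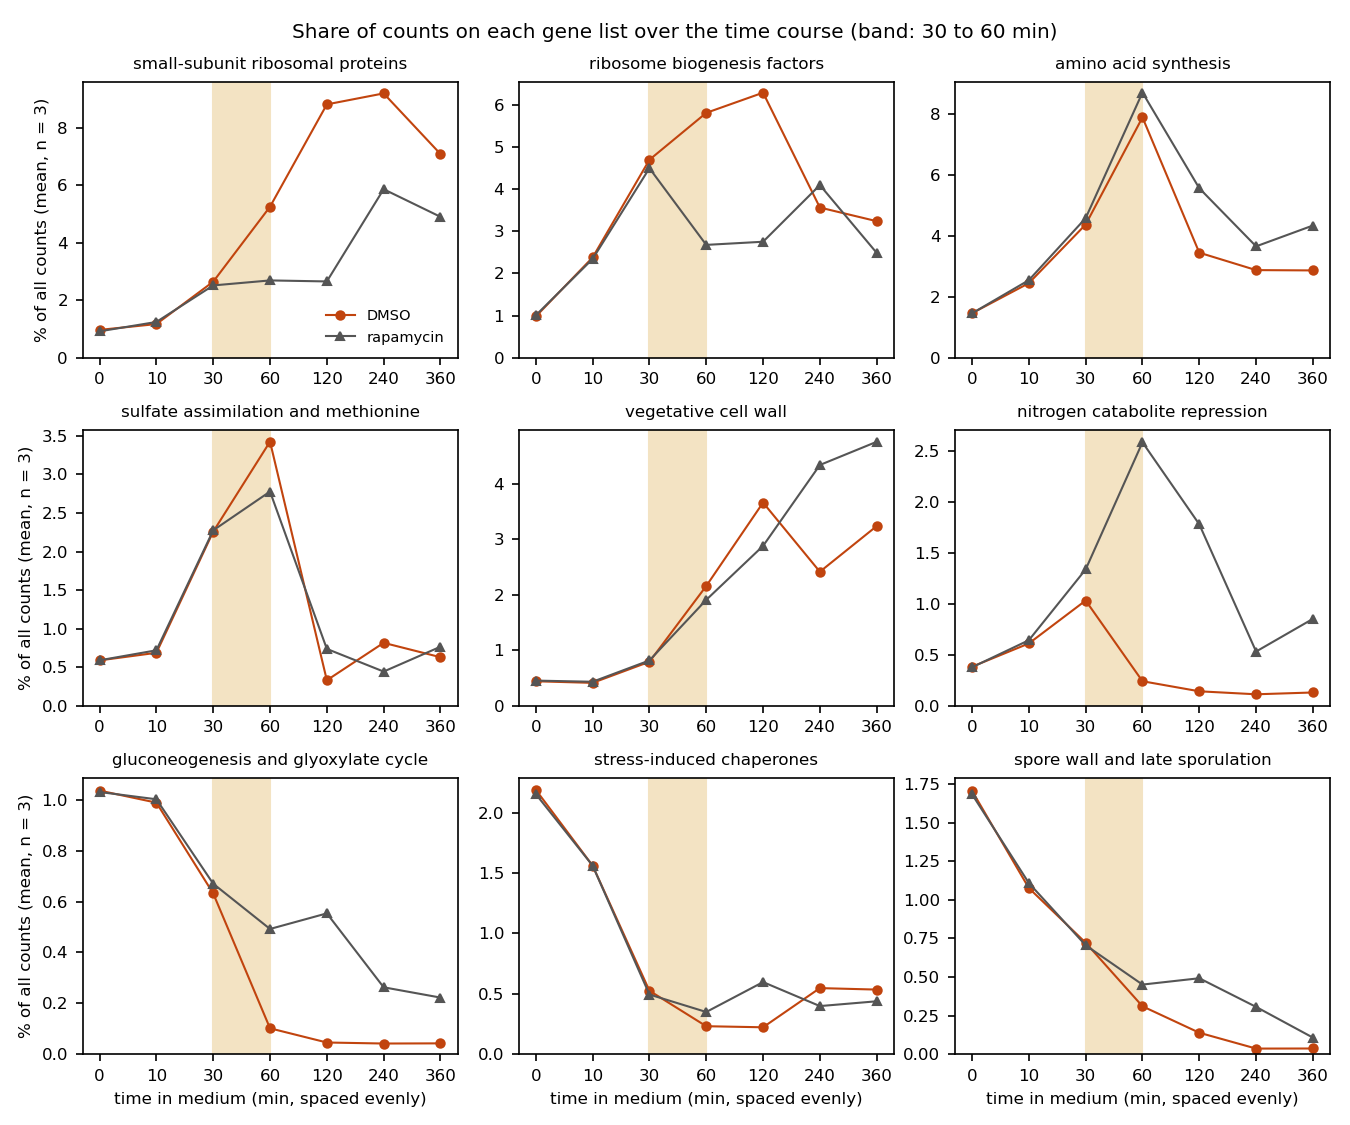
Mean share of all counts (%, n = 3 libraries a point) taken by each of 9 gene lists at 7 times between 0 and 360 min, spaced evenly on the horizontal axis, with DMSO as orange circles and rapamycin as grey triangles, and the step from 30 to 60 min shaded. The arms are close up to 30 min in most panels and part within the shaded step for small-subunit ribosomal proteins (5.25% at DMSO 60 min). The nitrogen list is already higher with rapamycin at 30 min (1.34%, against 1.03% with DMSO) and parts further within the step (0.242% at DMSO 60 min). Amino acid synthesis has its highest point at 60 min in both arms.

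Whether a gene moved differently in this step than in the one before was tested in a model of DMSO 60, 30 and 10 min. The difference was called in 972 genes, 16.6% of 5862, with 325 above 0 (5.54%) and 647 below 0 (11.0%). The DMSO 30 min libraries enter both steps with opposite sign, so any error in them enters the difference through both. GAP1 had the lowest value named under the rule, with -6.35 (SE 0.32), having risen by 1.69 before it fell by 4.63. SCW10 was positive at 3.40 (SE 0.44), rising by 1.26 and then by 4.68. HSP78 and PKP2, a kinase that acts on pyruvate dehydrogenase, first fell by 1.95 and 1.77 and then rose by 1.97 and 1.91. PKP2 had 225, 184 and 266 CPM at 60 min, against 56.0, 56.3 and 63.2 CPM at 30 min, and averaged 198 CPM at 10 min. ATG1 followed the same course, with 240.1 CPM at 10 min, 108 CPM at 30 min, 446 CPM at 60 min and 53.5 CPM at 120 min, the highest of these 4 times being 60 min.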

How the data were processed

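Poly(A)-selected RNA of 45 samples was sequenced as strand-specific single reads. The deposited table holds raw read counts per gene. By the methods of the study, the authors made them by trimming with Trimmomatic 0.33, aligning to an SK1 genome with HISAT2 and counting reads on the reverse strand with HTSeq in union mode, with the R64-1-1 gene names. The series' design text names another sequencer and other aligners (BWA and TopHat), and the submitters' processing notes list the human build hg19. Which of these applied was not settled. The gene IDs are those of yeast. Samples were grouped by treatment and time as labelled. Totals were 7736397 to 14522407 counts a library over the 45. Gene names, positions, promoters and repeated stretches came from RefSeq tables of build R64, in which 6008 of 6723 genes were found by ID and 29 by an older name. The other 686 held 0.296% of counts over the 6 libraries of the main comparison.

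The comparisons used edgeR 4.0.16, with limma 3.58.1, under R 4.3.3. They applied TMM scaling, a filter of 1 CPM in at least 3 libraries of the fit, glmQLFit and glmQLFTest, and Benjamini-Hochberg adjustment over all genes tested. A gene was called at an adjusted p under 0.05 and at least 2-fold. The main comparison was fitted on its 6 libraries, the difference from the rapamycin step on 12, and the difference from the step before on 9. Standard errors were derived from the fold change and the F statistic. CPM values of single libraries use TMM factors of all 45 libraries. Alternatives were RLE scaling, library totals alone, no filter, a filter of 5 CPM, DESeq2 1.42.0, no fold minimum, the letter as a block, all 45 libraries in 1 fit, and leaving out each library. The code was tested on simulated data.

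Letters paired the samples: deviations from the group means correlated between the same letters at 60 and 30 min (r = 0.413 for A, 0.161 for B and 0.387 for C over 5799 genes). No replicate pair was alike within sampling noise. The comparison, members and gene lists were chosen with earlier results of these data known. Named genes were the 10 largest rises and falls with libraries that do not overlap and a mean of 20 CPM or more in the higher group, the 2 strongest called members of a list in each direction, the study's genes of glucose and TORC1 and of the cell cycle, the 3 most extreme genes of each step difference in either direction, and the 10 with the most reads at either time. All other genes named, the isozyme pairs, and the Gcn4 and GATA motifs were chosen after their values were seen.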

Additional observations from a re-analysis of the deposited data

Results flagged for a closer look

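The difference between the DMSO step and the rapamycin step was called in 1032 genes and is listed because the test of the difference itself passed. Its lowest values named under the rule were -5.35 for GAP1 (SE 0.28), -5.06 for MEP2 (SE 0.27) and -4.90 for DIP5 (SE 0.29), the amino acid and ammonium permeases. Its highest were 2.47 for RFU1 (SE 0.30), an inhibitor of the deubiquitinase Doa4, 2.22 for INA1 (SE 0.34) and 2.21 for RPL9A (SE 0.36). RFU1 had 143, 133 and 138 CPM at DMSO 60 min, against 70.6, 77.3 and 85.1 CPM at DMSO 30 min, and 20.5, 38.9 and 16.8 CPM at rapamycin 60 min, against 76.8, 77.1 and 81.8 CPM at rapamycin 30 min. INA1 had 95.8, 95.3 and 151 CPM at DMSO 60 min, against 49.2, 31.8 and 53.8 CPM at DMSO 30 min, and 16.1, 25.6 and 17.6 CPM at rapamycin 60 min, against 37.6, 28.6 and 41.1 CPM at rapamycin 30 min. Of the read-length stretches of RPL9A, 2.1% recur elsewhere in the reference genome.

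The difference between this step and the one from 10 to 30 min was called in 972 genes, again by a test of the difference, in which the DMSO 30 min libraries enter both steps. SCW10 was at 3.40, HSP78 at 3.90 (SE 0.44) and PKP2 at 3.66 (SE 0.21). GAP1 was at -6.35, DIP5 at -5.26 (SE 0.34) and MEP2 at -5.15 (SE 0.30). HSP78 averaged 214 CPM at 10 min, 55.7 CPM at 30 min, 224 CPM at 60 min and 51.6 CPM at 120 min in DMSO, and it also rose with rapamycin, to 354, 265 and 461 CPM at 60 min, against 52.8, 57.0 and 66.3 CPM at 30 min. With 3 libraries a group, single libraries were not tested as outliers.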

How the results depend on the processing

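The calls held under most settings. The step gave 1317 genes with RLE scaling, 1307 with DESeq2, 1313 with all 45 libraries in the fit, 1194 with a filter of 5 CPM and 1431 with none, and all 191 named genes kept their direction and call with RLE scaling, DESeq2, no filter and all 45 libraries. With the letter as a block the pairing gave 1330 genes (506 higher and 824 lower), of which 1326 were among the 1330 called without it. The block gave 1050 genes for the difference from the rapamycin step, where letter B did not pair between rapamycin 60 and 30 min (r = -0.056), and 1000 for the difference from the step before, and it changed no call of a named gene.

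Without the fold minimum the step gave 4102 genes (1966 higher and 2136 lower), the difference from the rapamycin step 2954 (1505 and 1449) and that from the step before 2815 (1145 and 1670). Scaling to library totals alone gave 222 higher and 1527 lower for the step, 193 and 985 for the first difference and 162 and 1143 for the second. By its construction this scaling lowers every fold change of the step alike. Under it 157 of 191 named genes kept direction and call, 23 lost the call and 7 gained one. It turned the log2 fold changes of 4 genes that were not called, DHR2 to -0.032, FBA1 to -0.38, CDC19 to -0.29 and RKI1 to -0.30.

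Leaving out 1 library at a time gave 1225 to 1418 genes for the step (463 to 527 higher and 712 to 891 lower), 780 to 1277 for the difference from the rapamycin step (381 to 583 and 399 to 694) and 879 to 1070 for that from the step before (283 to 374 and 564 to 707). FBA1 ranged between -0.079 and 0.19 and changed sign without DMSO 60 min library B or C or DMSO 30 min library A. Each group has 3 libraries, and counting limits genes of a few reads such as CLN2 and CLB6.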

Other observations

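The transcripts with the most reads at 60 min were of translation, biosynthesis, glycolysis and acid export. YEF3, a fungal translation elongation factor, averaged 14041 CPM at DMSO 60 min and 7037 CPM at DMSO 30 min, and PDR12, a pump for weak acids, 5438 CPM at 60 min and 6231 CPM at 30 min. MET17, which fixes sulfide into homocysteine, had 6332, 6077 and 5141 CPM at 60 min, against 2900.4, 2563 and 2439.8 CPM at 30 min. GRE1, a hydrophilin of dry and stressed cells, held the most reads at 30 min and had 2558, 3652 and 2305 CPM at 60 min, against 5544, 8674 and 8067 CPM at 30 min.

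Other gene lists held rises and falls or falls alone. Of 27 tested antioxidant genes 2 rose and 7 fell, of 24 ergosterol genes 1 rose and 3 fell, and of 22 phosphate genes none rose and 4 fell. Their medians were -0.16, -0.29 and -0.54. The ergosterol list then had a median of 1.52 between 60 and 120 min. Of 9 tested genes that only haploid cells express, 2 fell and none rose, and their summed level was 384 to 398 CPM at 60 min, against 436 to 474 CPM at 30 min. The 9 include HO, where the study's strain list gives a LYS2 insertion, so its reads are not of an intact gene.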
